A study of Mus musculus with 5 samples.

Results

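Within 5 Mb of the distal ends of the 19 mouse autosomes lay 304 of the 4688 cytosine positions that the authors listed as differing in DNA methylation between G5 and G0 common myeloid progenitors. A position was counted when its listed start was no more than 5 Mb from the end of its chromosome, by mm10 lengths, so no measured value chose the members, although the lists themselves hold only positions selected for a difference. Of all listed positions 4227 were autosomal. The 304 positions fell on 295 distinct CpGs, and the authors' table assigns each to a gene start site, 162 genes in all. At 165 of them methylation was higher in G5 and at 139 it was lower. Chromosome 4 alone held 69 of the 304, including the largest differences, and is described apart.

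Methylation was measured by reduced representation bisulfite sequencing, in which DNA is digested with MspI, an enzyme that cuts at CCGG, and methylated and unmethylated cytosines are told apart in the short fragments. The cells were common myeloid progenitors, the bone marrow cells that give rise to granulocytes, monocytes, erythroid cells and platelets, isolated by FACS. The 2 G5 pools, of generation 5, came from mice labelled TERTER/ER and described as having short telomeres. These mice are homozygous for an allele that fuses telomerase reverse transcriptase to an oestrogen receptor domain. The 3 G0 pools, of generation 0, came from TERTER/+ mice, heterozygous for the same allele and called normal in the labels. Generation and genotype thus change together between the groups. The strain of all mice is given as mainly C576BL/6. Each sample is a pool of mice, and neither their number nor their age or sex is given in the sources used here. RNA was not measured, so the labelled cell type was not checked against marker genes. The labels give 29 to 38 M reads for a sample, but the tables hold no coverage, so the depth behind a single percentage is unknown.

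Telomeres are the repeat arrays that cap chromosomes, and they shorten over cell divisions and generations when telomerase is not active. Mouse autosomes have their centromere close to one end, so that the other end, called distal here, carries ordinary genes up to its telomere. Methylation of CpG islands at promoters usually goes with silent genes, whereas CpGs in gene bodies and between genes are commonly methylated.

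The dense stretches of listed CpGs show what was read at these ends. A cluster was defined as positions of the same direction no more than 1 kb apart. The 6 clusters of up to 300 bp with the most listed CpGs, outside untranslated regions, are printed from GRCm38.p6 on the plus strand with the listed CpGs in capitals. Among clusters tied at 3 CpGs the choice followed the sorting of chromosome names as text, so that others of that size, such as those of Prdm16 and Pkp3, are not printed.
Arhgap9, lower, chr10:127332391-127332651: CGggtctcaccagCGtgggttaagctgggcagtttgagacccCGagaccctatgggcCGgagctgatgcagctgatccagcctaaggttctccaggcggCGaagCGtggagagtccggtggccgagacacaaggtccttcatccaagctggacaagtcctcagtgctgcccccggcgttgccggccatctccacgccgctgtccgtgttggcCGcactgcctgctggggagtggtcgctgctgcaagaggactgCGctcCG
Dock9, lower, chr14:121660617-121660761: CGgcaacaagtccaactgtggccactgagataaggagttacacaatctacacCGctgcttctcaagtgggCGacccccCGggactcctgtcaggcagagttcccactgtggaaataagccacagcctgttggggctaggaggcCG
Dusp8, higher, chr7:142082373-142082461: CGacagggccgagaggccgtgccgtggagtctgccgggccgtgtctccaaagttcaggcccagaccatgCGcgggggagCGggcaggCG
Rbfox3, higher, chr11:118907962-118907984: CGcacatCGagagactactggCG
Tbc1d16, higher, chr11:119198932-119199039: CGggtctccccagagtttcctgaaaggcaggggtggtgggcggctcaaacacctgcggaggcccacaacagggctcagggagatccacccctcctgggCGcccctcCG
Rpe65, higher, chr3:159675026-159675054: CGgatggtggcaggctgtctgCGgcccCG
The stretch assigned to Arhgap9 held 19 CpGs, of which 9 were listed, and the Dusp8 stretch held 10, of which 4 were listed. In the Dock9, Rbfox3 and Rpe65 stretches every CpG was listed. Percentages at each of these stretches are given with their genes below.

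The listed positions were unevenly spread over the ends. The end of chromosome 4 held 69, chromosome 15 held 35, chromosomes 7 and 11 held 31 each, and chromosome 10 held 24. Chromosomes 6 and 16 had 3 each. Counts depend on how many CpGs the assay can reach, so they were set against the CpGs of GRCm38.p6 that lie in MspI fragments of 40 to 220 bp. Only distinct listed CpGs inside such fragments were counted, 281 of the 295 in the distal 5 Mb. Most of those left out lay on chromosome 13, whose rate is therefore low. This digest stands in for the CpGs that were tested but not listed, which are not known. Over the 19 ends 3.18 per 1000 such CpGs were listed (95% Wilson interval 2.83 to 3.57, counting error only), against 2.39 (2.32 to 2.47) in the rest of the autosomes. Chromosome 4 carried much of this. Its distal 5 Mb had 6.73 per 1000 (5.32 to 8.53), against 2.50 (2.22 to 2.80) in the rest of chromosome 4. Over the other 18 ends together the rate was 2.72 (2.38 to 3.11), against 2.39 (2.31 to 2.47) in the rest of those chromosomes, and these intervals overlap. Single ends lay on either side of their own chromosome. The ends of chromosomes 7, 10 and 15 had 5.10, 3.797 and 3.996 per 1000, against 3.47, 1.90 and 2.04 in the rest of each, while the end of chromosome 17 had 0.854 against 3.12. CpGs of a fragment are not independent, so the intervals are narrower than the true uncertainty.

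**Figure D1:**
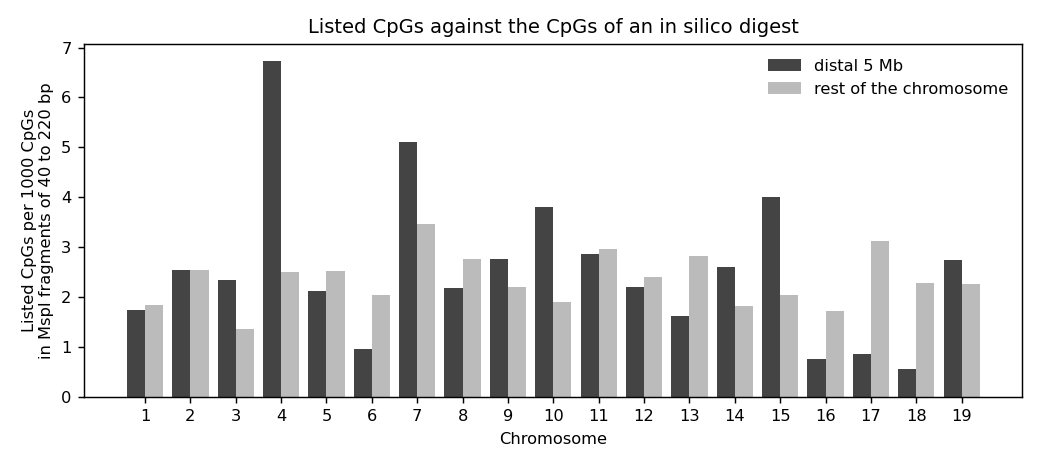
Listed CpGs inside MspI fragments of 40 to 220 bp, per 1000 CpGs in those fragments (vertical axis), for each autosome (horizontal axis). A dark bar is for the distal 5 Mb and a light bar for the rest of the chromosome. The distal bar of chromosome 4 stands highest at 6.73, and the distal bars of chromosomes 6, 16, 17 and 18 stand below 1.

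Both directions occurred near the ends at about the proportion seen elsewhere. Of the 304 positions 54.3% were higher in G5 (95% Wilson interval 48.7 to 59.8), against 57.8% (56.2 to 59.3) in the rest of the autosomes. Counted as clusters, 112 of 208 (53.8%) were higher, against 53.3% in the rest. The opposite, mapped end of the chromosomes, from 3 to 8 Mb, had 128 listed positions, of which 49.2% were higher. Differences given in the authors' deposited table had a median size of 17.0 percentage points in the distal 5 Mb, or 16.6 points with chromosome 4 left out, against 16.1 points in the rest.

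What the positions share beyond their place was read from the authors' annotation. Of the higher distal positions 23.6% lay in CpG island shores, the flanks of islands, against 11.1% of the higher positions in the rest of the autosomes, and 30.3% lay in islands, against 42.5%. Counted as clusters the shore shares were 25.0% and 12.9%. The mapped 5 Mb at the opposite ends had a like share of higher positions in shores, at 23.8%, or 28% of clusters. Of the lower positions 6.47% lay in shores in the distal 5 Mb, against 12.9% in the rest. Introns held 38.8% of the higher and 48.2% of the lower distal positions, against 29.9% and 34.7% in the rest. The lower share includes the 20 positions of 1 cluster on chromosome 13. Without it the share was 39.5%, and counted as clusters 40.6% of the lower lay in introns, against 34.9% in the rest. Positions in no promoter, exon or intron made up 21.2% of the higher and 24.5% of the lower, against 29.1% and 36.2%. CpGs of a cluster share a fragment or promoter, and these shares were not tested. In GENCODE, 113 of the 304 lay in introns, 79 in coding exons, 35 in untranslated exon parts, 22 in exons of noncoding transcripts and 55 outside genes. At 144 positions the assigned symbol was not among the gene symbols that GENCODE places over them, so a gene name below need not be the gene that contains the CpG. Symbols were compared as written, so an older symbol of the same gene, such as Ifltd1 for Lmntd1, counts as a mismatch.

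Each listed position had been chosen on the same samples, so the following tests describe how the pools spread and are no independent evidence. In limma's moderated test, fitted to the percentages of all 4688 positions with Benjamini-Hochberg adjustment, 59 of 165 higher distal positions (35.8%) and 39 of 139 lower ones (28.1%) passed an adjusted p of 0.05. Over all listed positions 33.2% of the higher and 33% of the lower passed. Both G5 pools lay above all 3 G0 pools at 144 of the higher distal positions (87.3%), where 86.9% of all higher positions were so separated. Both G5 pools lay below all G0 pools at 94 of the lower distal positions (67.6%), where the share over all lower positions was 83.9%. With the 20 positions of chromosome 13 left out, which form 1 cluster, it was 90 of 119 (75.6%). Of the 96 lower clusters 79 (82.3%) held at least 1 separated position, which is a looser count than by position. The like share over all lower clusters is not given here, so this value is not comparable with the 83.9%. The limma counts changed with the pools used. Without G0 pool 1 or G0 pool 3 no distal position passed in either direction, although before adjustment 78 and 68 higher and 51 and 45 lower positions had p under 0.05. Without G0 pool 2 the counts were 6 higher and 0 lower, and before adjustment 78 and 59. With 1 G5 pool the spread comes from the G0 pools alone, and the lone pool is assumed to vary like them. Without G5 pool 1 the counts were then 60 and 63, of which 35 and 24 had passed with all pools, and without G5 pool 2 they were 54 and 29, of which 32 and 17 had. Since a passed position keeps this dependence, "passed" below means passed with all 5 pools. The 5 pools can be divided in 10 ways, so the smallest p of an exact permutation test is 0.1.

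**Figure D2:**
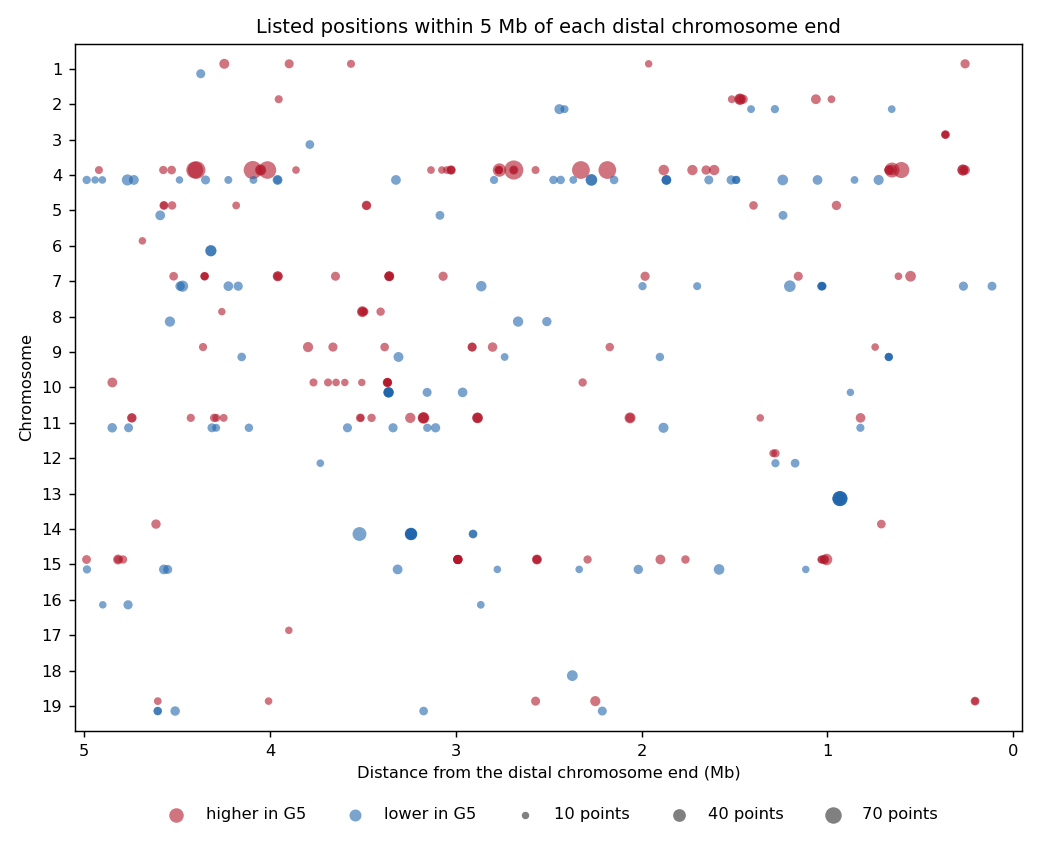
Each listed position by its distance in Mb from the distal end (horizontal axis, end at the right) and its chromosome (vertical axis), red where methylation was higher in G5 and blue where it was lower, with the area of a point growing with the authors' absolute difference in percentage points. Chromosome 4 carries 69 points, among them the largest red ones, and the 20 lower positions of chromosome 13 lie on one spot.

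The distal 5 Mb of chromosome 4 held 39 higher and 30 lower positions in 53 clusters, assigned to 32 genes. The higher ones fell into a strong group and a moderate group. A difference of at least 40 points in the authors' deposited table marked 10 positions, all of them higher in G5, with a median of 81.3 points. At the other 18 ends no position was higher by 40 points or more, and 5 were lower by as much. Outside the distal 5 Mb such differences also occurred, at 14 higher and 16 lower positions of the other autosomes. The rest of chromosome 4 had 4 higher and 1 lower. The remaining 29 higher positions of chromosome 4 had a median difference of 15.5 points and the 30 lower ones of 16.3 points, near the 16.1 points of the rest of the autosomes. The strong positions stretched from 4.41 Mb to 0.602 Mb from the chromosome end. They continued beyond the 5 Mb limit, with differences in the deposited table of 79.3 points near Vamp3 at 5.42 Mb, 84.7 points near Errfi1 at 5.63 Mb and 75.2 points near Slc2a7 at 6.35 Mb. The listed positions next to the limit, in the same deposited table, differed by -14.03 points near Camta1 at 4987684 bp from the end, just inside it, and by 17.5 points near Vamp3 at 5201376 bp, just outside it.

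At 9 of the 10 strong positions no other CpG within 1 kb was listed in the same direction, and none of the 10 lay in a promoter, island or shore of the authors' annotation. They are shown with 20 bases before the CpG and 19 after it, on the plus strand of GRCm38.p6 with the CpG in capitals, because single cytosines carry this result. The position assigned to Acap3 lies in an untranslated exon part and is not printed.
Plekhg5, chr4:152102170-152102210: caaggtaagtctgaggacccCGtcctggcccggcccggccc
Tnfrsf25, chr4:152112093-152112133: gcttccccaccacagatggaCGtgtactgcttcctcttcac
Kcnab2, chr4:152414423-152414463: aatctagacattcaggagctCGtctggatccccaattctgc
Nphp4, chr4:152493428-152493468: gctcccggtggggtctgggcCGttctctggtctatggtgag
BC039966, first, chr4:153742460-153742500: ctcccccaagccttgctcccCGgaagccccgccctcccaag
BC039966, second, chr4:153819803-153819843: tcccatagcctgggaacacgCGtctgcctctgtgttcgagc
Megf6, chr4:154181082-154181122: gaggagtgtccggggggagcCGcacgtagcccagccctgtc
Arhgef16, chr4:154323319-154323359: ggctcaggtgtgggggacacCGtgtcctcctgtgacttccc
Tas1r3, chr4:155855946-155855986: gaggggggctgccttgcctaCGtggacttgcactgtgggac
The measured cytosine was on the plus strand at 6 of the 10 and on the minus strand at 4.

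At 7 of the 10 strong positions the G0 pools fell apart in the same way. Both G5 pools stood at 75.0% to 100% there, while G0 pools 1 and 3 were under 2% and G0 pool 2 stood between 12.5% and 54.7%. Nearest the end among the 7 was the position assigned to Arhgef16, a guanine nucleotide exchange factor gene, which GENCODE places in a coding exon of Prdm16, a regulator of blood stem cells and brown fat. It stood at 100% and 98.7% in G5 pools 1 and 2, against 0%, 44.4% and 1.27% in G0 pools 1, 2 and 3. In an intron of Megf6, a gene of a protein with repeated EGF-like domains, the levels were 97.6% and 100% in G5 and 0%, 48.5% and 1.39% in G0. Pool 2 thus stood apart from the other G0 pools at both genes, and the G5 pools lay above all of them.

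The second BC039966 position, in a stretch without a GENCODE gene, had the largest difference of all 304. It stood at 100% in both G5 pools, against 0%, 12.5% and 0% in the G0 pools (limma, Benjamini-Hochberg adjusted p = 0.00743). A listed CpG 30 bp before it differed far less, at 100% and 94.7% in G5 and 71.6%, 87.8% and 80.0% in G0. That listed neighbour thus did not share the near absence of methylation in G0 pools 1 and 3, and levels at CpGs that were not listed are unknown. The first BC039966 position, at 153742480, was the strong position with the least spread in G0, at 97.3% and 95.8% in G5 and 48.2%, 56.4% and 51.4% in G0.

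The other strong positions lay further from the end or within 1 Mb of it. An intron of Nphp4, a gene of a ciliary protein, stood at 98.1% and 96.8% in G5 and 0.893%, 54.7% and 0% in G0. An intron of Kcnab2, the gene of a beta subunit of voltage-gated potassium channels, stood at 88.2% and 96.9% in G5 and 0%, 19.4% and 0% in G0. The groups were separated at both, with G0 pool 2 again the highest of its group. A pair of positions lay in Plekhg5, another exchange factor gene. The intronic one stood at 100% and 75.0% in G5 and 0%, 33.3% and 0% in G0. The coding one, assigned to the death receptor gene Tnfrsf25, stood at 96.4% and 96.4% in G5 and 0%, 52.3% and 0% in G0.

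Within 1 Mb of the end the G0 pools were arranged differently. The position assigned to Tas1r3, a subunit gene of the sweet and umami taste receptors, lay in an intron of Dvl1, which encodes a Wnt signalling protein. It stood at 94.5% and 96.5% in G5 and 1.41%, 50.6% and 58.2% in G0, so that G0 pool 1 alone was near 0. Both strands of this CpG were listed, and the other strand stood at 95.7% and 91.2% in G5 and 6.06%, 80.2% and 85.4% in G0. Averaged over both strands the difference was 47.5 points, and 25.9 points without G0 pool 1. The Acap3 position, in the gene of a GTPase activator of Arf proteins, stood at 97.0% and 100% in G5 and 9.52%, 40.5% and 34.4% in G0.

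The 10 strong positions were marked by the size of their difference on the same pools, so a high count of passed ones follows from the choice. All 10 passed limma, with Benjamini-Hochberg adjusted p from 0.00743 to 0.0468, where 33.2% of all listed higher positions passed. None passed without G0 pool 1 or G0 pool 3, 6 passed without G0 pool 2, and 4 and 5 passed without G5 pool 1 and G5 pool 2, while in each of these fits all 10 kept their sign, with differences of at least 41.1 points. At an unadjusted p under 0.05 all 10 passed without G0 pool 1 or G0 pool 3. The strain is labelled as mainly of 1 background, and the DNA sequence of these mice at the strong positions was not analysed here. Whether sequence differences between the mice contribute to the percentages at the strong positions was therefore not tested.

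**Figure D3:**
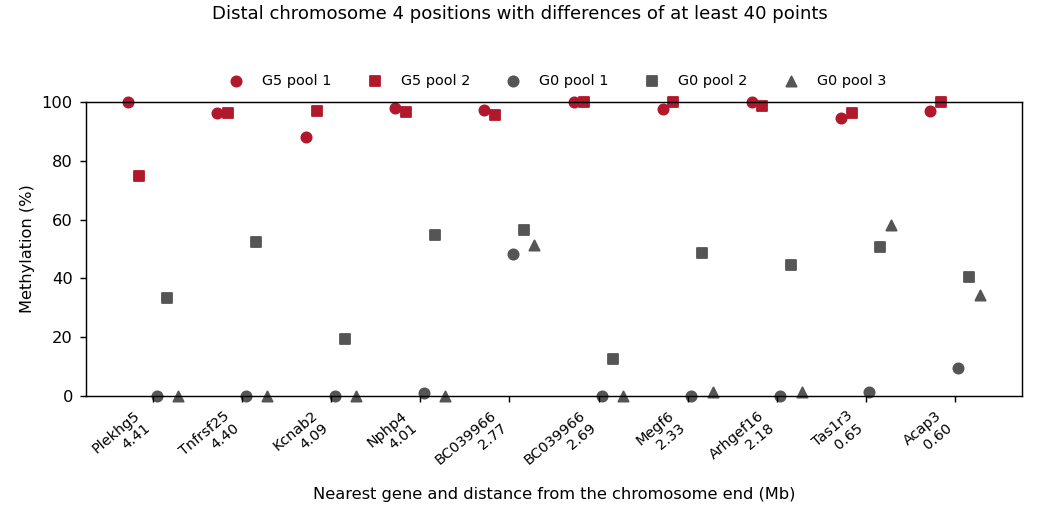
Methylation in percent (vertical axis) of each pool at the 10 distal chromosome 4 positions with a difference of at least 40 points, ordered by distance from the end in Mb under the gene names (horizontal axis), with G5 pools in red and G0 pools in grey. Every G5 point lies above every G0 point of its position, and at 7 positions G0 pools 1 and 3 lie under 2% while G0 pool 2 lies higher.

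The moderate positions of chromosome 4 were of the size seen at the other ends. Of the 29 higher ones 11 passed limma and of the 30 lower ones 10 did, where 33.2% and 33% of all listed positions did. Without G0 pool 1, 2 or 3 none of either passed, with 12 to 17 and 11 to 16 having p under 0.05 before adjustment. Without G5 pool 1 or G5 pool 2, 6 and 5 higher ones passed. With the strong positions counted in, the groups were separated at 36 of all 39 higher positions (92.3%), where 86.9% of all listed higher positions were. Of the 30 lower ones 25 were separated (83.3%), where 83.9% of all listed lower positions were.

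Closest to the end were Samd11, chosen for mention after its values were seen, and Noc2l. The intronic Samd11 position, 258376 bp from the end, stood at 100% and 94.7% in G5 and 83.0%, 77.5% and 72.1% in G0. Noc2l, which encodes an inhibitor of histone acetyltransferases, had 3 shore positions 1428 to 1518 bp from its start site, at a mean of 94.9% and 94.7% in G5 and 67.2%, 71.1% and 79.2% in G0. Its mean was 94.8% ± 0.126 (SD, n = 2) in G5 and 72.5% ± 6.10 (SD, n = 3) in G0, and 2 of the 3 passed.

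Ajap1, a gene of an adherens junction protein, was listed in both directions. Its 6 higher positions averaged 58.4% and 59.1% in G5 and 46.8%, 44.8% and 45.1% in G0, and the groups were separated at all 6. One of them, in the promoter island at 153482268, stood at 17.8% and 20.5% in G5 and at 0% in each G0 pool, and it alone of the 6 passed. The 2 lower positions, between genes, of which 1 passed, averaged 67.8% and 60.1% in G5 and 86.3%, 78.0% and 77.3% in G0. Camta1, a calmodulin-binding transcription activator gene, had 5 lower intronic positions spread from 151520432 to 151774407, at 42.4% and 39.2% in G5 and 61.0%, 52.2% and 61.8% in G0. Its 1 higher intronic position stood at 98.3% and 96.6% in G5 and 87.6%, 86.8% and 81.0% in G0.

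Prdm16 itself was assigned a cluster of 3 lower positions. They lay -4466 to -4641 bp from its start site, in the GENCODE gene Gm13111, at 36.7% and 38.6% in G5 and 56.2%, 59.0% and 57.6% in G0. The mean was 37.7% ± 1.33 (SD, n = 2) in G5 and 57.6% ± 1.38 (SD, n = 3) in G0, and all 3 positions passed limma. Of the positions assigned to Arhgef16, 3 were lower. They averaged 37.1% and 38.5% in G5 and 64.3%, 54.6% and 68.5% in G0, and 2 of them lie in a coding exon of Megf6. Kcnab2 had 2 more higher positions besides the strong one, and over the 3 it averaged 81.5% and 87.7% in G5 and 36.1%, 48.7% and 33.9% in G0. Its 1 lower position stood at 77.5% and 89.2% in G5 and 96.9%, 95.2% and 93.4% in G0, a difference of -11.8 points that became -6.00 points without G5 pool 1. Over its 8 higher positions BC039966 averaged 96.3% and 97.4% in G5 and 71.1%, 70.2% and 67.4% in G0, and 3 of the 8 passed.

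Trp73, a relative of the tumour suppressor p53, had 2 lower positions, chosen for mention after their values were seen. Its promoter island position at 154139969 was at 0% in both G5 pools and at 9.68%, 13.9% and 11.9% in G0. The intronic one stood at 1.41% and 2.08% in G5 and 18.7%, 10.4% and 18.2% in G0. The groups were separated at both and neither passed limma (Benjamini-Hochberg adjusted p = 0.0577 and 0.0544).

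Chromosome 13 had 1 listed stretch, 776 bp long and 932532 bp from the end, with all 20 positions lower in G5. All 20 lay in promoter islands assigned to the noncoding gene 3110070M22Rik and to Gm7120, and GENCODE places Tmem267 over them. The 16 positions of 3110070M22Rik averaged 77.1% and 3.14% in the G5 pools, against 72.5%, 60.3% and 85.05% in the G0 pools. G5 pool 2 was thus near 0 while G5 pool 1 lay among the G0 pools. The groups were separated at none of the 16 and none passed limma, nor did any have p under 0.05 before adjustment. The difference of -32.5 points became -69.5 points without G5 pool 1 and 4.46 points without G5 pool 2. The 4 Gm7120 positions averaged 32.1% and 3.32% in G5 and 58.5%, 55.8% and 81.3% in G0. Here both G5 pools lay below every G0 pool and all 4 passed.

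Distal chromosome 14 had 9 of its 11 positions lower. Dock9, the gene of an exchange factor for the GTPase Cdc42, had 6 intronic positions on the 5 CpGs printed above. The groups were separated at 4 of the 6, and 1 passed. They averaged 27.8% and 9.80% in G5 and 33.9%, 32.3% and 80.7% in G0. G0 pool 3 stood far above the other G0 pools, and without it the difference of -30.2 points was -14.3 points. The single position near the kinase gene Stk24 stood at 39.8% and 0% in G5 and 61.4%, 57.0% and 95.3% in G0, and it passed. Its difference of -51.4 points was -31.5 points without G5 pool 2.

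Chromosome 15, with 26 higher and 9 lower positions, had the most higher positions after chromosome 4. Fignl2, a gene related to the microtubule-severing enzyme fidgetin, had 11 of them in its coding sequence between 101052473 and 101054385, 9 in an island and 8 in the promoter window. They averaged 46.7% and 46.4% in G5 and 33.7%, 30.4% and 31.7% in G0, or 46.5% ± 0.193 (SD, n = 2) and 31.9% ± 1.63 (SD, n = 3). The groups were separated at 9 of the 11 and 2 passed. Hoxc4, a homeobox gene of axial patterning, had 3 positions at a mean of 41.7% and 47.6% in G5 and 22.5%, 24.8% and 25.1% in G0. Its highest G0 pool lay below both G5 pools, and 2 of the 3 passed.

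On chromosome 7 the phosphatase gene Dusp8 and the microRNA gene Mir3470b had 4 positions each. Those of Dusp8 were higher and lay in the stretch printed above, an island in coding sequence. They averaged 47.4% and 45.7% in G5 and 24.8%, 30.7% and 28.8% in G0, and 3 of the 4 passed. Mean levels were 46.5% ± 1.17 (SD, n = 2) in G5 and 28.1% ± 3.05 (SD, n = 3) in G0, more than the spread of either group apart. The 4 lower positions assigned to Mir3470b lie in Shank2 and averaged 88.0% and 74.4% in G5 and 95.6%, 93.8% and 93.1% in G0. None of the 4 passed limma, 2 having p under 0.05 before adjustment, and the difference of -13.0 points was -19.8 points without G5 pool 1 and -6.22 points without G5 pool 2. Shank2, the gene of a postsynaptic scaffold, was listed in both directions. A lower intronic position stood at 43.9% and 19.4% in G5 and 67.8%, 55.8% and 59.5% in G0. A higher promoter position stood at 23.6% and 27.1% in G5 and 5.97%, 8.77% and 8.11% in G0. Each passed and separated the groups, and the lower difference of -29.4 points was -17.1 points without G5 pool 2. The listed position nearest to any autosomal end lay 113850 bp from the end of chromosome 7, beside Mrgprd, a receptor gene of sensory neurons named for this place. It stood at 68.2% and 59.2% in G5 and 75.8%, 80.3% and 89.0% in G0.

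The end of chromosome 10 held 12 higher and 12 lower positions, most of them in a pair of clusters assigned to Arhgap9, a gene of a GTPase activator made in blood cells. The 5 higher positions lay in its coding exons and averaged 68.0% and 60.4% in G5 and 51.8%, 45.9% and 51.5% in G0. The 9 lower ones lie within the exons of Gli1, the gene of a transcription factor of Hedgehog signalling, at the stretch printed above. They averaged 52.0% and 25.3% in G5 and 59.1%, 53.6% and 56.5% in G0. G5 pool 2 was the lowest by far, and the difference of -17.7 points was -31.1 points without G5 pool 1 and -4.39 points without G5 pool 2. Of the 5 and the 9, 1 and 2 passed.

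Chromosome 11 had 20 higher and 11 lower positions. Rbfox3, the gene of the neuronal splicing factor known as NeuN, had 4 higher positions, of which 3 form the short cluster printed above. Over the 4 the means were 42.1% and 56.9% in G5 and 24.8%, 21.7% and 21.8% in G0, and 3 passed. In the cluster alone the levels were 25.0% and 43.5% in G5 and 8.50%, 5.43% and 5.96% in G0. Rbfox3 also had 2 lower positions, at 74.3% and 65.7% in G5 and 87.4%, 82.4% and 83.4% in G0. Tbc1d16, a Rab GTPase activator gene named for its printed stretch, had 3 higher intronic positions at 62.9% and 72.7% in G5 and 49.7%, 43.8% and 44.3% in G0, with 2 of them passed. The groups overlapped at none of these means. At single positions they were separated at all 4 higher Rbfox3 positions, 1 of the 2 lower ones and 2 of the 3 of Tbc1d16.

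Ends with fewer positions were each led by 1 or 2 genes. On chromosome 2, the helix-loop-helix gene Tcfl5 had 4 higher positions, 3 in its promoter island, at 44.9% and 45.8% in G5 and 22.8%, 20.6% and 25.2% in G0. The mean difference of 22.5 points had small spread in either group, at 45.3% ± 0.638 (SD, n = 2) in G5 and 22.9% ± 2.32 (SD, n = 3) in G0, and 3 of the 4 passed. On chromosome 3, the CpGs printed for Rpe65, the gene of a retinal isomerase, lie between genes at 96.5% and 95.8% in G5 and 84.3%, 86.5% and 79.4% in G0. On chromosome 8, with 6 higher and 3 lower positions, the promoter of Pcnxl2, a pecanex family gene, had 3 positions at 29.3% and 45.6% in G5 and 15.0%, 19.3% and 17.3% in G0. That difference of 20.2 points was 12.1 points without G5 pool 2.

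Chromosome 1 had 6 positions, and the one assigned to Atf3, a stress-responsive transcription factor gene, stood at 82.6% and 92.4% in G5 and 70.9%, 65.9% and 61.2% in G0 and passed. On chromosome 6 a pair of coding positions in Lmntd1, listed under its older symbol Ifltd1, averaged 28.6% and 25.9% in G5 and 36.7%, 62.0% and 64.9% in G0. G0 pool 1 stood well below the other G0 pools there, and neither position passed. On chromosome 9, with 9 higher and 7 lower positions, the largest difference was at a position between genes assigned to 1700020M21Rik, at 86.5% and 83.1% in G5 and 59.6%, 61.4% and 64.3% in G0, which passed.

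Chromosome 12 had 5 positions and chromosome 16 had 3, and none of them passed limma, with 3 and 1 having p under 0.05 before adjustment. Abcb5, a transporter gene on chromosome 12, stood at 70.7% and 97.1% in G5 and 98.6%, 100% and 96.9% in G0, so that G5 pool 2 lay among the G0 pools. Its difference of -14.5 points was -1.33 points without G5 pool 1 and -27.7 points without G5 pool 2. The noncoding gene 1700029J03Rik on chromosome 16 stood at 55.7% and 77.3% in G5 and 88.5%, 85.5% and 87.6% in G0, a difference of -20.7 points that was -9.89 points without G5 pool 1 and -31.5 points without G5 pool 2.

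The sole position of chromosome 18 lay 564817 bp from the start site of Socs6, a cytokine signalling suppressor gene, and stood at 74.1% and 35.2% in G5 and 91.5%, 87.5% and 77.3% in G0. Both G5 pools lay below every G0 pool at Socs6, and the difference of -30.8 points was -50.2 points without G5 pool 1 and -11.3 points without G5 pool 2. It did not pass limma, although its p before adjustment was under 0.05.

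On chromosome 19, Tdrd1, a germ cell gene of the piRNA pathway, had 2 lower promoter island positions at a mean of 92.4% and 63.5% in G5 and 95.3%, 90.6% and 89.96% in G0. G5 pool 1 lay among the G0 pools, and the difference of -14.02 points was -28.4 points without G5 pool 1 and 0.403 points without G5 pool 2. Another promoter position, 268 bp from the start site, was higher, at 98.6% and 96.4% in G5 and 84.5%, 92.3% and 81.2% in G0. The position assigned to the homeobox gene Vax1 stood at 83.3% and 93.4% in G5 and 67.3%, 63.4% and 69.8% in G0 and passed. Csf2ra, which encodes the alpha chain of the receptor for granulocyte-macrophage colony-stimulating factor and lies 205108 bp from the end, was chosen for mention after its values were seen. Its 2 island positions averaged 33.3% and 9.52% in G5 and 7.06%, 7.08% and 8.07% in G0, neither passed, and the difference of 14.02 points was 2.12 points without G5 pool 1 and 25.9 points without G5 pool 2.

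**Figure D4:**
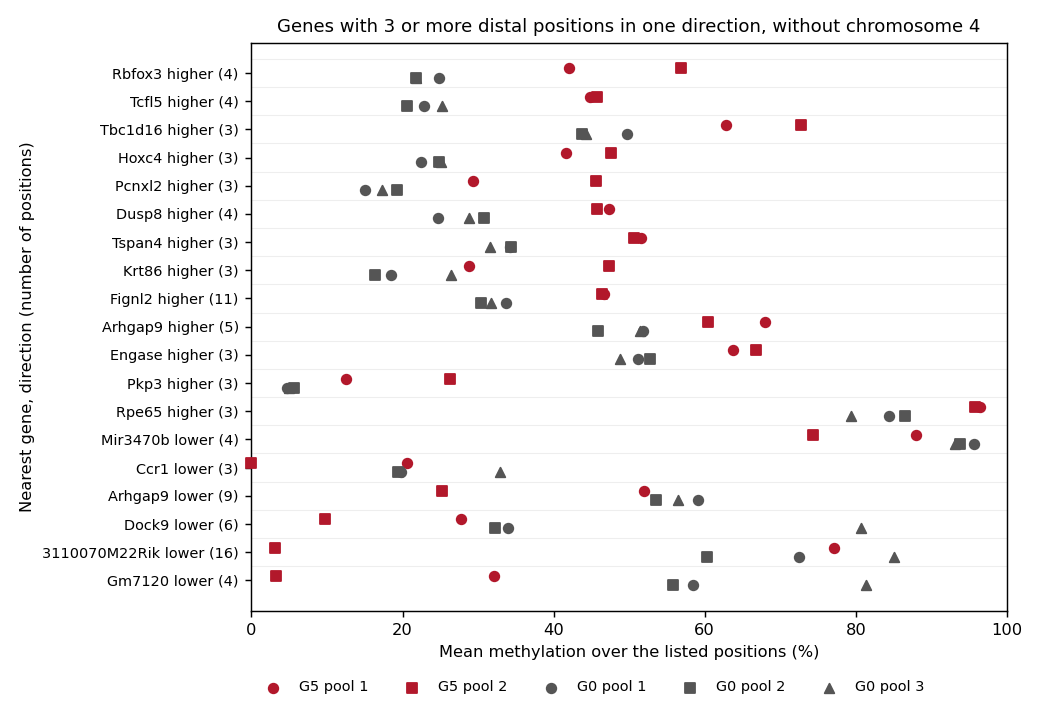
Mean methylation in percent over the listed positions of a gene (horizontal axis) for each gene outside chromosome 4 with at least 3 distal positions in one direction (vertical axis), with G5 pools in red, G0 pools in grey and the number of positions in brackets. Fignl2 and Tcfl5 show nearly equal G5 pools above all G0 pools, while the G5 pools of 3110070M22Rik lie at 77.1% and 3.14%.

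Genes that share a function were followed as lists, chosen with earlier results of these data known, so their counts are descriptions. Of the 2270 RefSeq genes in the distal 5 Mb 152 (6.70%) had a listed distal position, and the lists were drawn up with the listed genes in view. Of 18 imprinted genes of distal chromosome 7, all within the window, 3 were listed, with 1 higher and 3 lower positions. In the promoter of H19, a maternally expressed noncoding gene, 1 position 45 bp before the start site stood at 31.4% and 47.1% in G5 and 61.5%, 71.4% and 67.4% in G0. Both G5 pools lay below all G0 pools, and it was the 1 position of the list to pass (limma, Benjamini-Hochberg adjusted p = 0.0442). Cdkn1c, which encodes a cell cycle inhibitor, had a higher island position within its coding exon at 30.6% and 49.4% in G5 and 16.7%, 23.7% and 24.3% in G0. That difference of 18.5 points was 27.9 points without G5 pool 1 and 9.06 points without G5 pool 2. A lower position assigned to Cdkn1c stood at 6.58% and 14.5% in G5 and 15.0%, 25.7% and 31.8% in G0. The promoter position of Osbpl5, a lipid transfer protein gene, stood at 0% and 4.92% in G5 and 10.8%, 18.2% and 16.7% in G0.

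Among 33 homeobox, zinc finger and helix-loop-helix genes of patterning, 26 lay in the window and 9 were listed, at 11 higher and 7 lower positions. Of these 3 of 11 higher and 4 of 7 lower ones passed, where 33.2% and 33% of all listed positions did, and the median absolute difference in the authors' deposited table was 15.5 points, against 16.4 points over all listed positions. Pdx1, a pancreatic homeobox gene and the leading gene among the 8 higher and 3 lower positions of chromosome 5, had 2 higher positions at 77.5% and 88.8% in G5 and 68.5%, 66.9% and 76.2% in G0, and 1 lower one at 59.2% and 51.4% in G5 and 79.5%, 77.4% and 74.0% in G0. All lie in the neighbouring noncoding gene Plut. The lower one passed, and the higher difference of 12.6 points was 6.94 points without G5 pool 2. Sp8, a zinc finger gene of limb outgrowth, had 2 higher positions at 25.5% and 8.87% in G5 and 3.01%, 7.91% and 5.44% in G0, and 1 lower one at 2.38% and 4% in G5 and 17.1%, 10.9% and 21.1% in G0. The higher Sp8 difference of 11.7 points was 3.42 points without G5 pool 1 and 20.02 points without G5 pool 2. None of the Sp8 positions passed. Hoxc4 and Prdm16, given with their chromosomes, had 2 of 3 and 3 of 3 positions passed.

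Of 27 haematopoietic and signalling genes 25 lay in the window and 4 were listed, namely Arhgap9, Ccr1, Irf7 and Socs3, at 5 higher and 14 lower positions. Socs3, a feedback inhibitor of cytokine signalling, had 1 coding exon island position that was at 0% in both G5 pools and at 14.9%, 19.5% and 10.8% in G0, and it passed (limma, Benjamini-Hochberg adjusted p = 0.0496). The position assigned to Irf7, an interferon regulatory factor gene, lies in a coding exon of Cdhr5 and stood at 48.0% and 63.2% in G5 and 72.9%, 71.6% and 83.8% in G0. Its difference of -20.5 points was -12.9 points without G5 pool 1, and it did not pass. Ccr1, a chemokine receptor gene, was assigned 3 positions in an island between genes, at 20.6% and 0% in G5 and 19.8%, 19.4% and 32.9% in G0. G5 pool 1 lay among the G0 pools there, and the difference of -13.7 points was -24.0 points without G5 pool 1 and -3.45 points without G5 pool 2. Known regulators of these cells in the same window, such as Cd34, Flt3, Erg and Nfe2, had no listed distal position.

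The remaining lists were sparse. None of the 6 polycomb and chromatin genes in the window was listed. Of 10 genome maintenance genes in the window 1 was, with a position assigned to Tk1, the thymidine kinase gene, at 11.5% and 14% in G5 and 0%, 1.92% and 0% in G0 that did not pass. The ion channel list was partial. Of its 10 genes in the window 4 were listed, at 5 higher and 2 lower positions. Of these positions 4 of the 5 and none of the 2 passed, where 33.2% and 33% of all listed positions did. The 4 that passed include 3 of Kcnab2, a gene of the strong chromosome 4 group. Kcnh3, Kcnk1 and Kcnk18, potassium channel genes outside the list, also had listed distal positions. Of the 2 higher Kcnh3 positions 1 passed, while the higher Kcnk1 position and the lower Kcnk18 position did not. The position near Chrna4, a nicotinic receptor subunit gene, passed at 95.5% and 92.0% in G5 and 76.3%, 66.7% and 75.3% in G0. The lower position assigned to Kcnj15, a potassium channel gene, 84196 bp from its start site, did not pass, at 1.87% and 5.36% in G5 and 6.94%, 15.3% and 19.2% in G0.

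The G5 pools were unequal at the lower positions. G5 pool 2 was below G5 pool 1 at 90 of the 139 lower distal positions (64.7%), against 43.4% of the lower positions in the rest of the autosomes. The median difference from the G0 mean was -13.2 points for G5 pool 1 and -22.7 points for G5 pool 2, against -15.2 and -15.8 points in the rest. Chromosome 13 and other clusters weigh on this count. Without chromosome 13 the share was 58.8%, and over the 96 lower clusters it was 53.1%, against 41.5% of lower clusters in the rest. At the higher distal positions G5 pool 2 was below G5 pool 1 at 47.9%, against 48.4% in the rest, and the median differences were 16.1 and 16.3 points. The median level over the higher positions was 55.7% and 61.8% in G5 and 28.3%, 35.4% and 34.9% in G0. Over the lower positions it was 58.4% and 30.3% in G5 and 72.9%, 64.5% and 80.3% in G0.

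**Figure D5:**
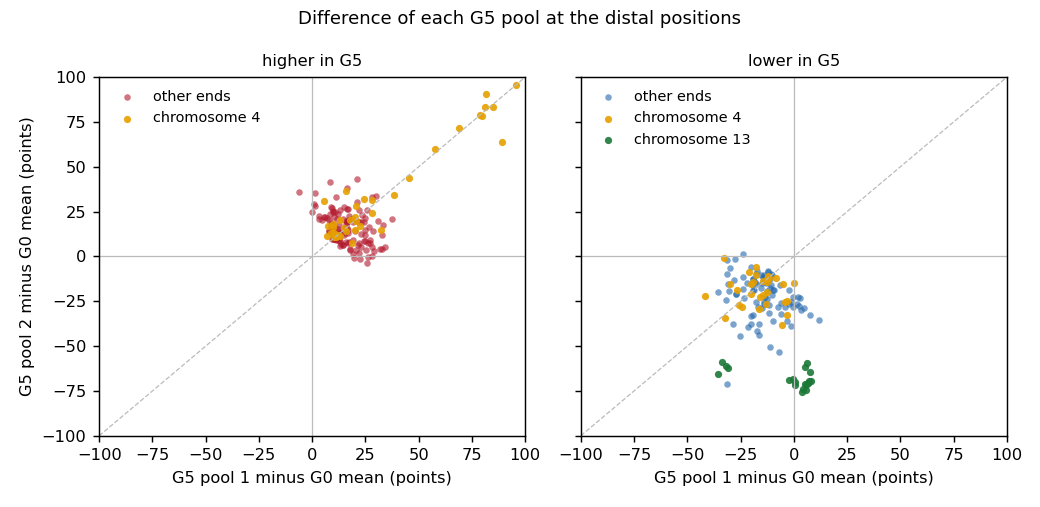
Difference from the G0 mean in percentage points of G5 pool 1 (horizontal axis) and G5 pool 2 (vertical axis) at each higher (left panel) and lower (right panel) distal position, with chromosome 4 in orange, chromosome 13 in green and the dashed line marking equal pools. The chromosome 13 positions lie far below the dashed line in the right panel.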

How the data were processed

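Reduced representation bisulfite sequencing libraries of common myeloid progenitors from 2 G5 and 3 G0 pools were analysed. The submitters' processing notes name mm10, Bowtie, Bismark 0.7.11 and methylKit. The authors deposited 2 tables, of higher and of lower positions, with the percent methylation of each sample. Per the file headers each row also has a p-value and q-value and a difference in percentage points, and in the files every q-value is under 0.01 and every absolute difference is at least 10 points. Single positions keep the numbering of the files, which starts at 0. Sequence regions are counted from 1.

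The members and the gene lists were chosen with earlier results of these data known. The named genes are, per end, the gene with the most positions and the one with the largest single difference, for chromosome 4 the 6 with the most positions and the 3 with the largest mean difference among genes with at least 2 positions, and up to 4 per list. Genes outside this rule are named for a printed sequence, for their place, as 1 of the 10 strong chromosome 4 positions or its neighbours, or as chosen after their values were seen, and all of these were named with their values known. A gene is the authors' nearest start site, and its level is the mean over its listed distal positions in a pool. The genome, GRCm38.p6, and its GENCODE annotation placed the positions and the MspI fragments. At 2 positions of Septin9 the table holds a date in place of the symbol, and the name was taken from the accession through RefSeq. Limma 3.58.1 (R 4.3.3) was fitted to the percentages of all 4688 positions without covariates, with Benjamini-Hochberg adjustment, and checked on simulated data. Other steps used Python 3.11.15, pandas 2.3.3, numpy 2.4.6, scipy 1.17.1 and pysam 0.24.0. The files give no read counts, so a test on counts and a coverage minimum were not run and no counting interval is given for a level. The labels speak of separate pools of mice, so p-values measure the spread between pools. Each pool was left out in turn, and other windows, thresholds and scales were tried. Some listed positions are not reported here.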

Additional observations from a re-analysis of the deposited data

How the results depend on the processing

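Over all 181 gene and direction pairs 7 changed sign when 1 pool was left out. Among 61 pairs of the genes followed in detail 2 did, and the size moved by over 1.5 times in 18. The 2 were 3110070M22Rik, at 4.46 points without G5 pool 2 and -69.5 points without G5 pool 1, and the lower Tdrd1 positions, at 0.403 and -28.4 points, and the cause was not tested. The higher and lower limma counts of 59 and 39 ranged from 0 to 60 and from 0 to 63 with 1 pool left out. The labels do not say that equal pool numbers share anything, and deviations of same-numbered pools correlated at 0.0124 and 0.0476, so the numbers were not taken as a pairing. With the replicate number as a block 0 positions passed limma in either direction, with 60 higher and 38 lower at an unadjusted p under 0.05. Counts over fewer or more positions changed by construction. Within 2 Mb 20 of 46 higher and 14 of 55 lower positions passed and 39 and 31 separated the groups, and within 10 Mb 124 of 334 and 79 of 270 passed and 300 and 213 separated them. At a q-value under 0.001, 20 of 65 lower positions passed, and 76 higher and 42 lower positions separated the groups. At 20 points or more 38 of 44 and 25 of 43 passed and 42 and 35 separated the groups, and the median was 25.2 points. Without chromosome 4, 38 of 126 higher positions passed. The share higher in G5 was 45.5% within 2 Mb. The 20 lower positions of the single chromosome 13 cluster lie within these 2 Mb and pull that share down. The digest rate was 2.48 per 1000 with fragments up to 300 bp, against 1.88 in the rest of the autosomes, and 2.72 without chromosome 4. On M values 81 and 43 positions passed, and with a trended robust fit 82 and 53. Leaving out chromosome 13 was chosen after seeing the data. The coverage minimum of 20 reads and the count test were not run, since the tables hold no coverage, and the unknown depth limits how far a single percentage can be read.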
